A study of Mus musculus with 9 samples.

Results

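The skeletal muscle program is described here across activated hepatic stellate cells (aHSCs), the scar-forming cells of the liver. It was defined as a list of 41 genes, with every probe whose gene symbol, or failing that an older synonym, was on the list. Of these, 39 had a probe and all 39 matched by symbol, among 30869 gene symbols on the array. Mybph and Tnnt2 were not analysed here. The 39 genes were represented by 76 probes, and each gene is given by its probe with the highest mean. The list was drawn up with the difference between WT1-positive and WT1-negative cells already known, so for these genes that difference is described and not tested.

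Skeletal muscle is built when myogenic transcription factors of the MyoD family commit precursor cells and switch on contractile genes. The products assemble into sarcomeres, in which myosin thick filaments pull on actin thin filaments when calcium binds troponin, and acetylcholine receptors carry the motor nerve's signal to the fibre. Many components exist in embryonic or fetal forms that adult forms replace after birth. Stellate cells activated in injury or on plastic acquire smooth muscle type contractile genes, whereas most skeletal muscle genes are not among their usual markers. The study does count Acta1 as a marker of fibrogenic activation, and reports it by quantitative PCR in all its cultured subpopulations. In those cultures it reports higher Acta1 in the WT1-intermediate subpopulation. That compares WT1 status within culture, which the arrays used here do not.

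The samples were 9, with 1 Illumina MouseWG-6 v2.0 bead array each. All carried the WT1GFP/+ genotype, a green fluorescent protein (GFP) knock-in reporter at the WT1 locus, on a strain labelled C57/Bl6 and with gender labelled male, although the study's methods mention both sexes for cultures. WT1-high aHSCs (GFP high, replicates 1, 8 and 29) and WT1-intermediate aHSCs (GFP low, replicates 1, 8 and 30) were sorted straight from livers of mice given repeated intraperitoneal carbon tetrachloride, and the methods give 3 animals as the source of both populations. WT1-negative aHSCs (GFP negative, replicates 3, 11 and 14) were sorted after quiescent cells had activated for 7 days on plastic and had received no carbon tetrachloride per the labels. All WT1-negative arrays were therefore cultured and all WT1-positive arrays came from liver. On these arrays WT1 status, origin and the separately exported tables cannot be told apart. In sorted populations measured in bulk, fewer cells of a type and less RNA per cell cannot be told apart either. For a small set of genes the study also compared WT1-high with WT1-negative cells within culture by quantitative PCR. It reports that those differences correlated strongly with the ones found after injury in vivo.

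Between 17253 and 19774 probes were detected per array, where detected means a deposited detection p under 0.05. Biotin control probes averaged 4399 to 4876 on the in vivo arrays and 2872 to 3134 on the culture arrays. Of 20 stellate cell markers, 17 passed the filter of detection on 3 arrays. Des, Pdgfrb and Col1a1 were detected on all 9 arrays, Lhx2 and Rgs5 on 0, Lrat on 1 WT1-high array, and Colec11, Hand2 and Gata4 on 0 of the 3 WT1-negative arrays. Lhx2 and Rgs5 thus lacked signal in every group, and Colec11, Hand2 and Gata4 lacked it in the cultures. Of the 17, 10 were called higher and 4 lower in WT1-high than in WT1-negative cells, beside 27.6% and 32.1% of all genes. In WT1-intermediate cells 9 were called higher and 3 lower than in WT1-negative cells, beside 25.9% and 32%. The summed level of the macrophage markers with a probe was 4292 to 7427 on WT1-high, 14503 to 24791 on WT1-intermediate and 49880 to 56285 on WT1-negative arrays. That of 11 mesothelial markers was 400 to 498 on WT1-negative arrays, against 36047 to 40646 on WT1-high arrays. Both lists move with the group differences described next, and their part in them was not tested. The summed level of 15 smooth muscle and myofibroblast markers was 5893 to 6702 on WT1-high, 3872 to 4949 on WT1-intermediate and 11406 to 13357 on WT1-negative arrays. Of 11 that passed the filter, 4 were called lower and 2 higher in WT1-high than in WT1-negative cells, beside 32.1% and 27.6% of all genes. In WT1-intermediate cells 5 were called lower and 2 higher, beside 32% and 25.9%. Of the 17 cardiac muscle markers with a probe, 11 were detected on no array, including Myh6 and Nppa. Myl7, an atrial myosin light chain, was detected on all 6 in vivo arrays and on 0 of the 3 WT1-negative arrays. The reverse also occurred, since 2 of the 17 were detected on every WT1-negative array and on no in vivo array.

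The sequences upstream of 6 members are shown because these genes carry the main pattern. Acta1, Myl1 and Tnnc1 had the largest differences between groups, and Chrna1, Chrng and Chrnb1 encode subunits of 1 receptor of which the last went the other way. Each is the 250 bases before the transcription start in RefSeq (build GRCm38.p6), written 5′ to 3′ on the gene's strand. Capitals mark every E-box (CANNTG), the core that proteins of the MyoD family bind, which reads the same class on both strands.
Acta1 (GRCm38.p6 chr8:123894776-123895025, minus strand): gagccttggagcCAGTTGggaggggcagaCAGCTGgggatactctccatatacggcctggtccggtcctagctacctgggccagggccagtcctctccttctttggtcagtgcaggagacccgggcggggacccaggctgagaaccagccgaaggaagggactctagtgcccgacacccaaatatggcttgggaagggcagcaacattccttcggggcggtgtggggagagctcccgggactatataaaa
Myl1 (GRCm38.p6 chr1:66945057-66945306, minus strand): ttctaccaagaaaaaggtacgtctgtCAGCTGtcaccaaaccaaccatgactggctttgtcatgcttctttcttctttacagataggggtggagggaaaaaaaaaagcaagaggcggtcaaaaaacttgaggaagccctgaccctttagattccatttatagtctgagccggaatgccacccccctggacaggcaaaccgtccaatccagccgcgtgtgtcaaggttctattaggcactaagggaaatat
Tnnc1 (GRCm38.p6 chr14:31208062-31208311, plus strand): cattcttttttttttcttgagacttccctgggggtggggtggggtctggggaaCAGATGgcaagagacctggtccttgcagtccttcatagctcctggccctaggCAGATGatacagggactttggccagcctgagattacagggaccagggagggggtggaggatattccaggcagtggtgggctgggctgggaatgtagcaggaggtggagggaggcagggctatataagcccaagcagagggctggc
Chrna1 (GRCm38.p6 chr2:73580339-73580588, minus strand): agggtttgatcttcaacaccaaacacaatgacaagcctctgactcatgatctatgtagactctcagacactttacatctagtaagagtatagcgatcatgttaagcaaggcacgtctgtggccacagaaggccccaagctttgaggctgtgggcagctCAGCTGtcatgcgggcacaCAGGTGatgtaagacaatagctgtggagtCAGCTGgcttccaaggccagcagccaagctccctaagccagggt
Chrng (GRCm38.p6 chr1:87205561-87205810, plus strand): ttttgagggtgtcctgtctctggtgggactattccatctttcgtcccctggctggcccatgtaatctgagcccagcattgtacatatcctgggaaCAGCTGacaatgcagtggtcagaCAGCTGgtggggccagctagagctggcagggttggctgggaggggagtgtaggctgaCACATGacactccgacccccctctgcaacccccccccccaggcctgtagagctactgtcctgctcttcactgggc
Chrnb1 (GRCm38.p6 chr11:69795938-69796187, minus strand): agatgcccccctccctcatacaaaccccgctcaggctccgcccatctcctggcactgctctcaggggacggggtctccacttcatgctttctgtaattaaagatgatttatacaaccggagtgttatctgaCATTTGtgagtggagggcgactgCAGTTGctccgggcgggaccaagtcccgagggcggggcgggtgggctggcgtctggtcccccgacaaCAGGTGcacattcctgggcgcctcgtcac
An E-box CANNTG was present upstream of 23 of the 32 members with a RefSeq promoter entry (71.9%), against 69.3% of 27025 genes. The form CAGCTG, which is contained in CANNTG, was present in 10 of 32 (31.2%) against 14.7% of all genes. It occurred upstream of Acta1, Myl1, Mylpf, Tnni1, Ckm, Mb, Atp2a1, Chrna1, Chrng and Cav3, with 2 copies each in Chrna1 and Chrng and 0 in Chrnb1. Ckm was undetected on every array although its window held the motif. The longer MEF2 motif was present in 4 members (12.5% against 3.42% of all genes), namely Ttn, Myh1, Myh8 and Casq2. The CArG box was present in another 4 (12.5% against 1.62%), namely Acta1, Actc1, Ldb3 and Myom1. Both strands were searched, genes with several starts were counted once, and a match is a description of the letters only.

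In WT1-negative aHSCs most of the skeletal muscle program was detected, and in WT1-high and WT1-intermediate aHSCs most of it was not. On all 3 WT1-negative arrays 29 of 39 genes were detected. Of those 29, 15 (51.7%) were detected on no in vivo array by the probe given. That pattern was seen in 2.19% of all genes detected on every WT1-negative array. By contrast 7 genes were detected on all 9 arrays (Actn2, Myl4, Tnnt1, Tnni2, Chrnb1, Atp2a1 and Ryr1), and 6 on none (Myf5, Myf6, Pax7, Neb, Myh2 and Ckm), beside 38.3% of all genes that no array detected. The filter was passed by 30 members, and Ldb3, Myh7 and Chrnd were the remaining 3 of the 9 that did not pass.

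**Figure D1:**
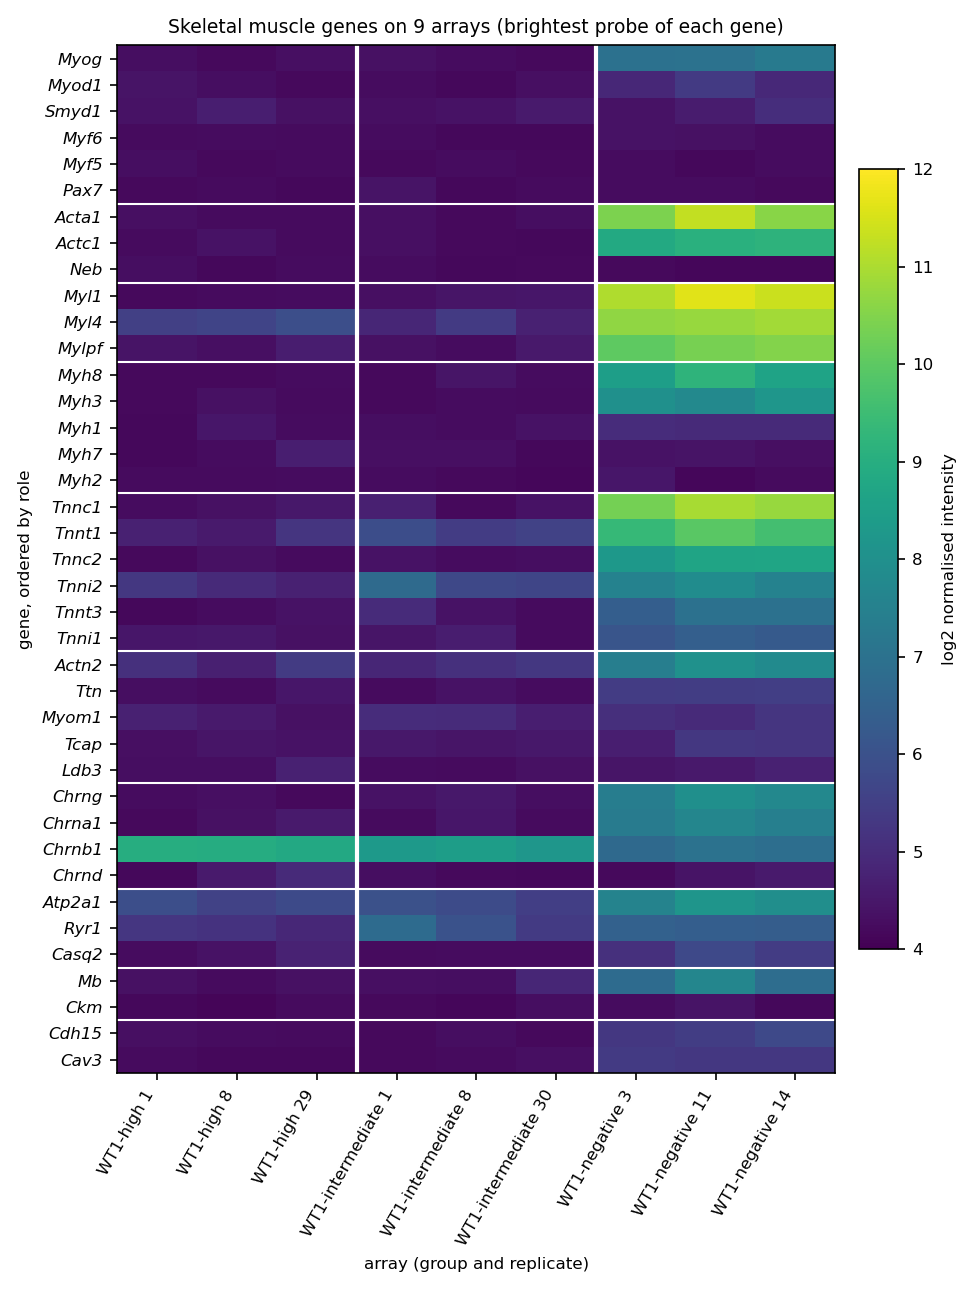
Log2 normalised intensity (colour) of 39 skeletal muscle genes (rows, by role, brightest probe of each) on 9 arrays (columns, by group). Rows may be read across arrays but not against each other, since probes differ in brightness; Myl1 reads 4.21 to 4.47 on the in vivo arrays and 11.04 to 11.63 on the WT1-negative arrays, and Chrnb1 runs the other way.

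Among the regulators, 2 factors of the MyoD family were detected in culture. Myog, which drives the terminal differentiation of myoblasts, read 4.29, 4.21 and 4.32 on the WT1-high arrays (log2 normalised intensity, here and below in the order of the replicates above), 4.36, 4.25 and 4.20 on the WT1-intermediate arrays and 6.99, 7.01 and 7.27 on the WT1-negative arrays. It was not detected on any in vivo array, and its level in culture was at least 5.82-fold that of WT1-high and at least 5.78-fold that of WT1-intermediate cells. A bound of this kind compares the mean of the brighter group with the lowest signal that counted as detected. The other Myog probe read 4.87 to 4.98 in culture, so the size of the difference depends on the probe. The probe of Myod1, the factor that commits cells to the muscle lineage, read 4.89, 5.36 and 4.93 in culture against 4.17 to 4.41 in vivo, or at least 1.43-fold and 1.42-fold.

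Signal for Pax7, Myf5 and Myf6 was not seen. Pax7, the satellite cell factor, read 4.18 to 4.42 over all 9 arrays. Myf5 read 4.18 to 4.29 and Myf6 4.16 to 4.38, and none of these 3 was detected on any array. Smyd1, a muscle methyltransferase, was detected on 2 WT1-negative arrays and on 1 WT1-high array, at 4.34 to 5.05, and its groups overlapped. Myf5 and Myf6 are neighbours on the same chromosome in the RefSeq annotation and shared the absence of signal.

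The thin filament actins were among the brightest differences. Acta1, the actin of adult skeletal muscle, read 4.32, 4.23 and 4.22 in WT1-high, 4.34, 4.21 and 4.28 in WT1-intermediate and 10.44, 11.28 and 10.59 in WT1-negative cells. That is at least 74.6-fold and 74.0-fold higher in culture. Actc1, the cardiac actin that is also the main actin of embryonic skeletal muscle, read 4.22, 4.39 and 4.22, then 4.32, 4.20 and 4.18, and 8.85, 9.09 and 9.17 in the same order. Its culture level was at least 22.4-fold that of WT1-high cells by this probe, and at least 1.88-fold by its other passing probe. The probe for Neb, the giant ruler protein of the thin filament, stayed at 4.14 to 4.28 throughout.

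All 3 myosin light chains were higher in culture by the largest amounts of any role, with a median log2 difference of WT1-high cells of -5.84 and of WT1-intermediate cells of -5.92. Myl1, the fast fibre essential light chain, gave the largest difference of any member. Its levels were 4.21, 4.25 and 4.26 in WT1-high, 4.33, 4.47 and 4.47 in WT1-intermediate and 11.04, 11.63 and 11.36 in WT1-negative cells. The culture level was at least 111.4-fold that of WT1-high and at least 110.5-fold that of WT1-intermediate cells. A further Myl1 probe passed the filter, and its culture level was at least 2.51-fold that of WT1-high cells. Mylpf, the fast regulatory light chain, read 4.42, 4.34 and 4.64, then 4.36, 4.26 and 4.54, and 10.02, 10.37 and 10.53. The culture values exceeded the others by at least 54.2-fold and 53.8-fold by this probe. The other Mylpf probe was detected on 2 WT1-high and 3 WT1-intermediate arrays. Its culture level was 31.2-fold that of WT1-high and 28.7-fold that of WT1-intermediate cells, so the size depends on the probe. Myl4, the embryonic and atrial light chain, was the one light chain detected on every in vivo array, at 5.52, 5.65 and 5.94 in WT1-high, 4.85, 5.36 and 4.72 in WT1-intermediate and 10.67, 10.78 and 10.90 in WT1-negative cells. Here the differences were measured on both sides and amounted to 33.8-fold and 55.9-fold.

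The myosin heavy chains include developmental and adult forms, and probes of different chains are not set against each other here. Myh3, the embryonic chain, read 4.19, 4.36 and 4.22 in WT1-high, 4.21, 4.26 and 4.24 in WT1-intermediate and 8.02, 7.76 and 8.19 in WT1-negative cells. Myh8, the perinatal chain, read 4.19, 4.19 and 4.26, then 4.20, 4.44 and 4.28, and 8.48, 9.21 and 8.65. The differences were at least 10.9-fold and 18.8-fold from WT1-high cells, respectively. The other Myh8 probes were also higher in culture, at 6.24 to 7.14 against 4.18 to 4.70 in vivo. Myh1, the fast IIx chain, was detected in culture at 4.94 to 5.02, whereas Myh2, the fast IIa chain, was not detected on any array. Myh7, the slow chain, was detected on 1 WT1-high array and on no WT1-negative array. Myh1, Myh2, Myh3 and Myh8 lie in 1 cluster on chromosome 11 in RefSeq, and Myh2 was the one of them with no detected probe in culture.

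All 6 troponin genes with a probe were higher in WT1-negative cells, in both slow and fast forms. Tnnc1, the calcium sensor of slow and cardiac muscle, read 4.25, 4.35 and 4.53 in WT1-high, 4.70, 4.22 and 4.39 in WT1-intermediate and 10.33, 10.96 and 10.78 in WT1-negative cells, at least 70.7-fold above WT1-high. Tnnc2, its fast counterpart, read 4.19, 4.35 and 4.22, then 4.39, 4.25 and 4.30, and 8.26, 8.68 and 8.72, at least 16.1-fold above WT1-high. Both calcium sensors thus had culture values clear of the in vivo range. Tnnt1, the slow tropomyosin-binding subunit, read 4.74, 4.58 and 5.22, then 5.90, 5.43 and 5.56, and 9.37, 9.94 and 9.60, with in vivo signal on every array. The culture level was 27.6-fold that of WT1-high cells, and WT1-intermediate cells differed from it by -4.00 on the log2 scale. The fast subunits Tnni2 and Tnnt3, which lie near each other in RefSeq with 2 genes between them, were lower in WT1-high than in WT1-negative cells, with log2 differences of -2.67 and -2.51, as was the slow inhibitory subunit Tnni1, with -1.82.

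Proteins that anchor filaments showed smaller differences. Actn2, the alpha-actinin of the Z disc, was detected on all 9 arrays and was lower than culture in both populations, with log2 differences of -2.68 for WT1-high cells and -2.67 for the intermediate ones. Ttn, the spring protein titin, has 12 probes, and the brightest read 5.42 to 5.49 in culture and 4.22 to 4.48 in vivo. The other titin probes reached 4.16 to 5.35 in culture, several of them no higher than in vivo, so the level of Ttn depends on the probe. Tcap, the titin cap, and Myom1, of the M line, had WT1-high levels below culture, with log2 differences of -0.67 and -0.53.

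Acetylcholine receptor subunits did not share 1 direction. Chrna1, the ligand-binding alpha subunit, read 4.21, 4.36 and 4.57 in WT1-high, 4.22, 4.49 and 4.25 in WT1-intermediate and 7.33, 7.68 and 7.46 in WT1-negative cells. Chrng, the gamma subunit of the fetal receptor, read 4.25, 4.34 and 4.20, then 4.38, 4.52 and 4.29, and 7.40, 7.98 and 7.73. These are at least 7.70-fold and 8.92-fold above WT1-high, with no overlap between culture and liver. Chrnd, the adjacent gene on the chromosome, which encodes the delta subunit, was not detected in culture and was detected on 2 WT1-high arrays at up to 4.95. Chrnb1, the beta subunit, was the only member of the 39 whose in vivo arrays all lay above every WT1-negative array. Of all genes tested, 31.8% had WT1-high and 29.5% WT1-intermediate arrays clear above culture in this way. It read 8.99, 8.95 and 8.82 in WT1-high, 8.31, 8.46 and 8.21 in WT1-intermediate and 6.73, 7.02 and 6.90 in WT1-negative cells, a 4.11-fold and a 2.72-fold difference.

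Calcium handling genes and the remaining members were in part detected in vivo as well. Atp2a1, the fast muscle calcium pump of the sarcoplasmic reticulum, read 7.57, 8.18 and 7.94 in culture and 5.47 to 5.99 in vivo, a difference of 4.40-fold from WT1-high. Casq2, a calcium-storing protein, had a WT1-high level below culture, with a log2 difference of -0.97. Mb, the oxygen-binding myoglobin, read 6.78, 7.66 and 6.86 in culture and 4.23 to 4.85 in vivo, at least 5.87-fold above WT1-high. Ckm, the muscle creatine kinase, did not exceed 4.42 on any array. Cdh15, the cadherin of myoblasts, and Cav3, the muscle caveolin, read 5.29 to 5.77 and 5.31 to 5.36 in culture and were undetected in vivo.

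Relative to culture, the 39 genes had a median difference of -1.31 in WT1-high cells and -1.26 in the intermediate population on the log2 scale. Of the 39, 9 did not pass the filter. Over the 30 that passed, 15 of them detected on no in vivo array, the medians were -2.68 and -2.42. All genes tested, which had passed the filter, had -0.07 and -0.10. In limma, 28 members were called lower in WT1-high cells and 26 in WT1-intermediate cells, beside 32.1% and 32% of all genes tested, and 1 (Chrnb1) was called higher in each, beside 27.6% and 25.9%. Nothing is read from these counts, because the list was chosen on the contrast and both comparisons share the WT1-negative arrays. Passing members left uncalled were Smyd1 against WT1-high, and Smyd1, Ryr1 and Myom1 against WT1-intermediate. The size of the median over the 39 genes depended on the background correction, falling to -0.50 and -0.38 with none.

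**Figure D2:**
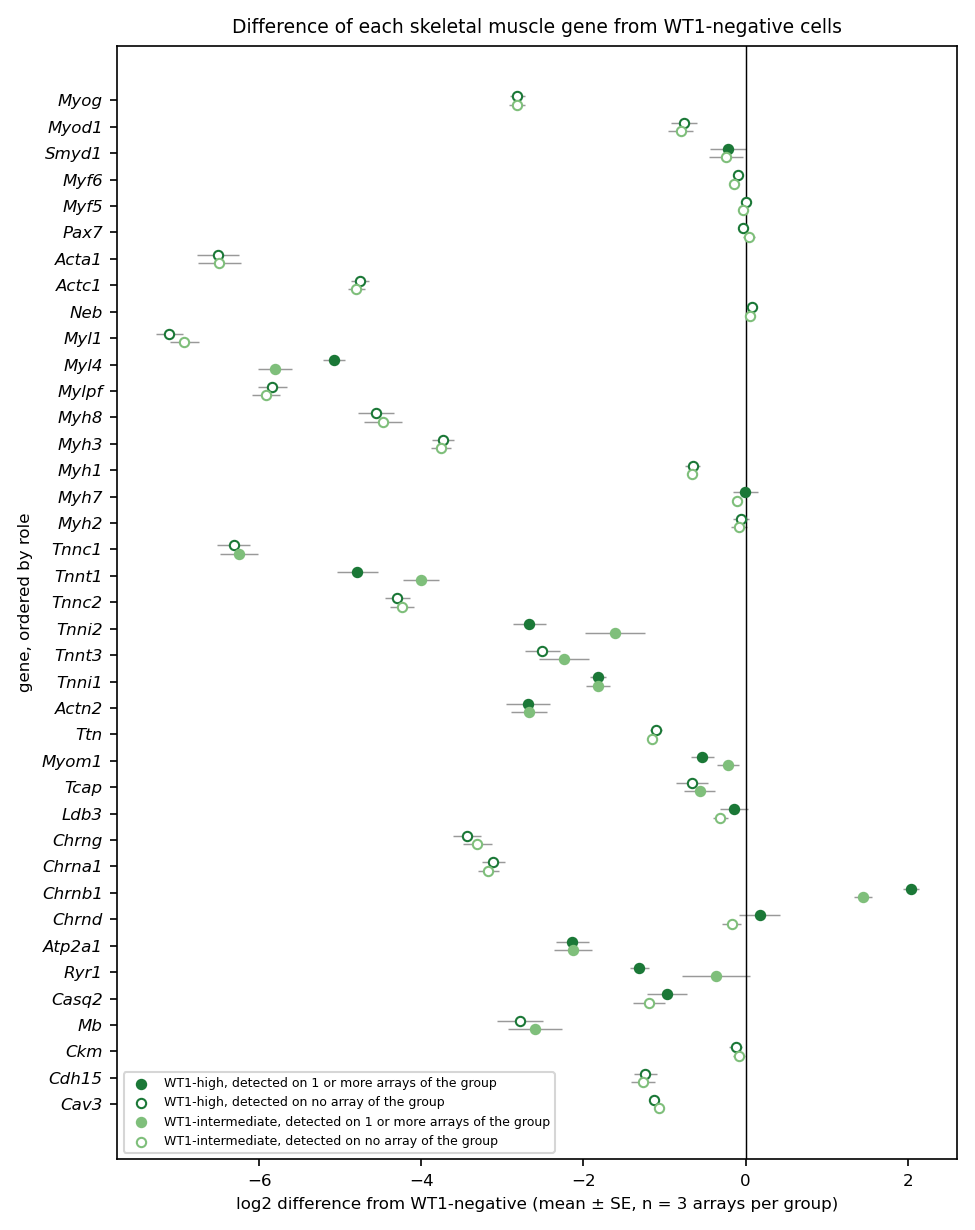
Log2 difference of each of 39 skeletal muscle genes (vertical axis, by role) from WT1-negative cells (horizontal axis; mean ± SE, n = 3 arrays per group) in WT1-high (dark green) and WT1-intermediate (light green) cells, with open points for genes detected on no array of that group, for which the point is the fitted difference and not the bound. Values run from -7.11 for Myl1 to 2.04 for Chrnb1, and the 2 populations lie close together for most genes.

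WT1-high and WT1-intermediate cells, both taken from injured liver, were then compared, a contrast the list was not drawn up on. Over the 39 members the median difference of WT1-high from WT1-intermediate was 0.0024, and 31 members lay within 0.25 of 0. Over the 30 members that passed the filter it was -0.011. All genes tested, which had passed the filter too, had 0.039. Most members were undetected in both populations, where background keeps a difference near 0. The median therefore does not show that the populations share the levels of these genes. Only 7 members were detected on all 9 arrays. In the fit without replicate pairing 1 member was called, beside 3.83% of all genes. It was higher in WT1-high cells, beside 0.962% of all genes called higher and 2.87% called lower, and 5 members had an unadjusted p under 0.05. With the replicate number as a block, 5 members were called (Chrnb1 and Myl4 higher, Tnni2, Ryr1 and Tnnt1 lower), beside 8.49% of all genes. All of these 5 had been detected on each of the 9 arrays. Groups did not overlap for 2 members with WT1-high above (Chrnb1 and Myl4) and for 4 with WT1-high below (Tnni2, Ryr1, Tnnt1 and Myl1), beside 11.4% and 9.1% of all genes.

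Chrnb1 rose by 0.59 ± 0.14 (SE, n = 3 per group) on the log2 scale in WT1-high cells, from 8.21 to 8.46 up to 8.82 to 8.99, with limma's adjusted p of 0.0481 without the block and 0.0266 with it. It was higher in 3 of 3 pairs. The call without the block was lost when any 1 of the 9 arrays was left out (adjusted p 0.0528 to 0.136). Its second probe, which was dimmer, differed by 0.39 (adjusted p = 0.469). Myl4 differed by 0.72 ± 0.19, with an adjusted p of 0.0634 without the block and 0.0351 with it, and was higher in WT1-high cells in 3 of 3 pairs.

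The 3 members that were lower in WT1-high cells differed most in the pair of replicate 1. Tnni2, the fast inhibitory troponin, read 5.31, 4.94 and 4.75 in WT1-high cells and 6.75, 5.74 and 5.69 in WT1-intermediate cells. Its difference was -1.06 ± 0.27, with an adjusted p of 0.0577 without the block and 0.00476 with it. Ryr1, the calcium release channel, read 5.26, 5.16 and 4.88 in WT1-high, 6.80, 6.01 and 5.35 in WT1-intermediate and 6.49, 6.39 and 6.37 in WT1-negative cells. WT1-intermediate replicate 1 thus lay above every culture array for Ryr1, which it did not for Tnni2, Tnnt1 or Myl4. The Ryr1 difference was -0.95 ± 0.29 (adjusted p 0.107 without the block, 0.0144 with it), its other passing probes differed by -1.08 and -0.41, and without WT1-intermediate replicate 1 it was -0.59. Tnnt1 differed by -0.78 ± 0.21 (adjusted p 0.0725 and 0.0368). Each of these 3 was lower in WT1-high cells in 3 of 3 pairs.

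Macrophage markers moved with this contrast. Of the 16 macrophage markers that passed the filter, 11 were called lower in WT1-high cells and 0 higher. Emr1, the F4/80 antigen, read 7.53, 8.16 and 7.74 in WT1-high cells and 10.41, 9.54 and 9.90 in WT1-intermediate cells, and the summed macrophage level was highest on WT1-intermediate replicate 1 among the in vivo arrays (24791, against 21102 and 14503 on replicates 8 and 30). Among the in vivo arrays Tnni2, Tnnt1 and Ryr1 were also highest there, and the part of macrophage RNA in their difference was not tested.

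**Figure D3:**
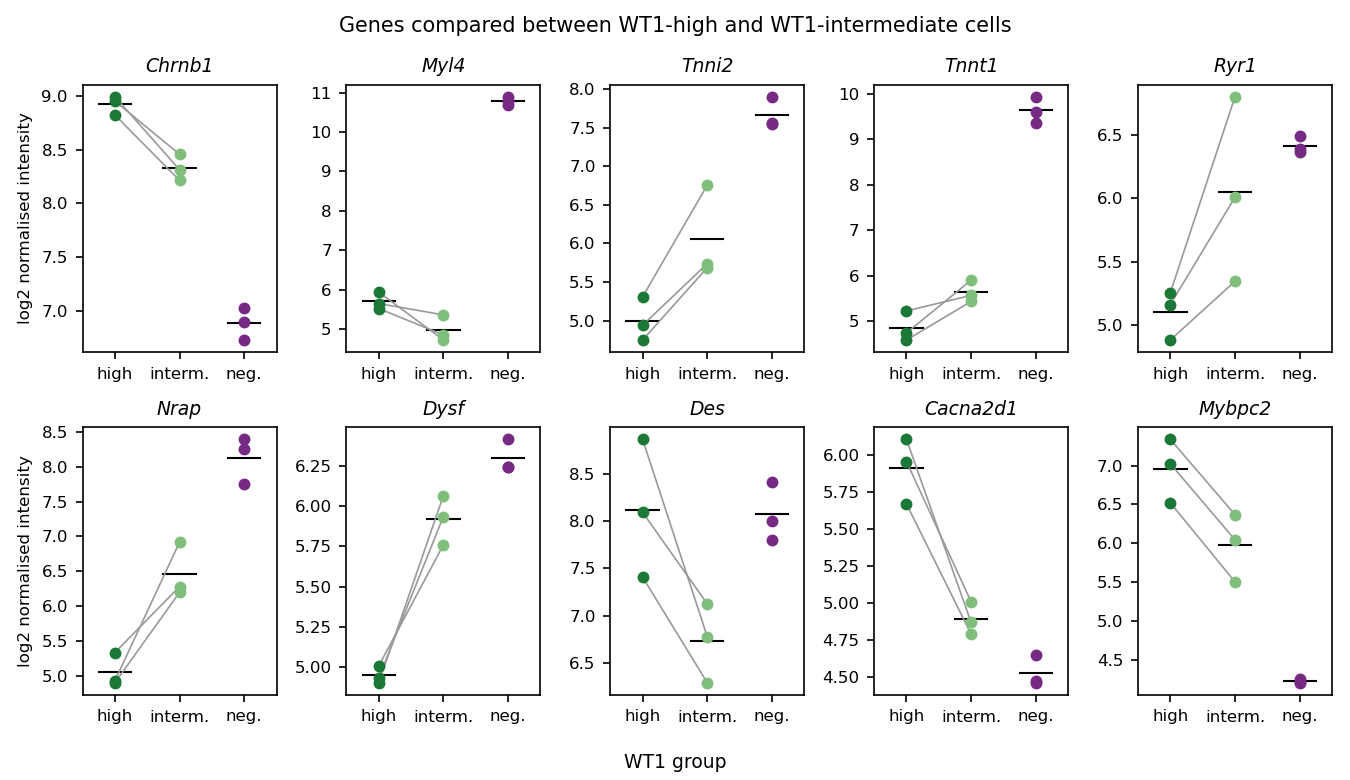
Log2 normalised intensity per array (points; bars are group means, n = 3) for 5 members (top row) and 5 other skeletal muscle genes (bottom row) in WT1-high, WT1-intermediate and WT1-negative cells, with grey lines joining WT1-high and WT1-intermediate arrays of 1 replicate pair (29 with 30). The vertical axes differ between genes and do not start at 0; Chrnb1 and Myl4 are higher and Tnni2, Tnnt1 and Ryr1 lower in WT1-high cells in all 3 pairs.

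Over the 3 WT1-negative cultures the median range was larger for the skeletal muscle members than for all genes, which were not matched for level. Over the 29 members detected in all cultures, the range between the 3 arrays had a median of 0.47 on the log2 scale, from 0.05 for Cav3 to 0.87 for Mb, against 0.32 for all genes so detected. Replicate 11 was the highest for 17 of the 29, beside 35.3% of all such genes, replicate 14 for 9 and replicate 3 for 3. Replicate 3 was the lowest for 24, a count for which the share over all genes was not computed, so it is not read as particular to these genes. Acta1, at 11.28 in replicate 11 against 10.44 and 10.59, and Myh8, at 9.21 against 8.48 and 8.65, followed this order, whereas Myog was highest in replicate 14 and Myh3 lowest in replicate 11. No test was made among single cultures. The differences between cultures were small beside those from the in vivo arrays. Without replicate 11 the members' median range was 0.20 over the 2 cultures left, for which the value over all genes was not computed.

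**Figure D4:**
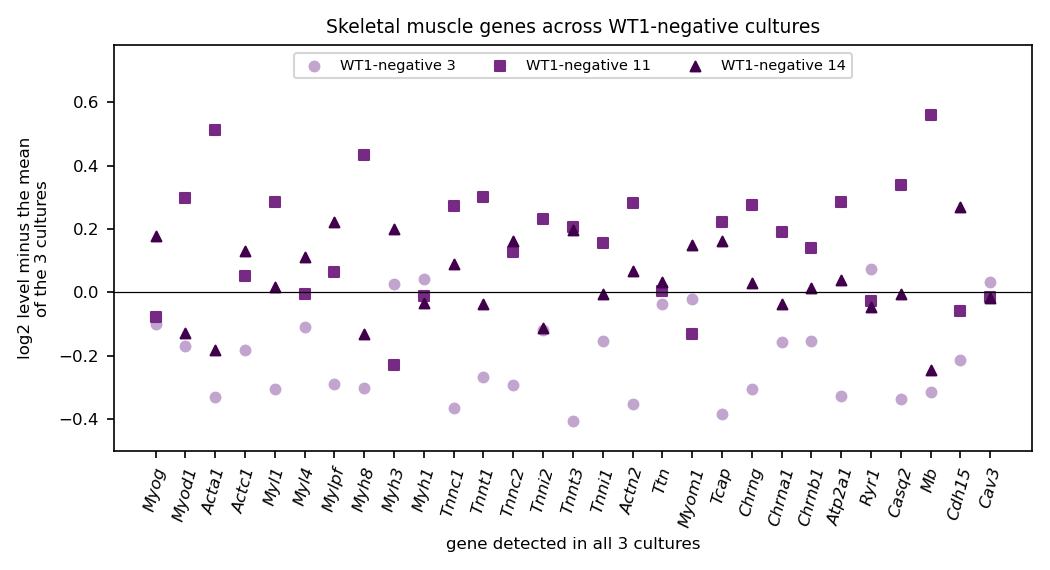
Log2 level of 29 skeletal muscle genes in each WT1-negative culture, minus the mean of the 3 cultures (vertical axis), by gene (horizontal axis). Replicate 11 (squares) is highest for 17 genes and replicate 3 (circles) is lowest for 24, the latter with no share over all genes computed.

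Other skeletal muscle genes, which were no members, differed from WT1-negative cells in both directions. They are not set against the members, which were listed with this contrast known. Of 117 listed, 105 had a probe and 61 passed the filter, 9 of them detected on every WT1-negative array and on no in vivo array. In WT1-high against WT1-negative cells 30 fell and 13 rose in limma's test, beside 32.1% and 27.6% of all genes, and in the comparison of WT1-intermediate with WT1-negative cells 32 fell and 9 rose, beside 32% and 25.9%. Their median differences over the 105 genes were -0.14 for both populations. Energy metabolism genes ran one way, with 7 of 9 passing genes lower in each population and 0 higher. Regulators, fusion and satellite cell genes were split, with 4 lower and 3 higher of 11 in WT1-high cells.

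The genes with the largest falls were named by rule. Igf2, a growth factor of developing muscle, fell by 4.61 ± 0.21 in WT1-high cells (limma's adjusted p = 1.99e-08), from 10.65, 10.98 and 11.08 in culture. Ankrd1, a titin-bound ankyrin repeat protein, fell by 3.78, and Nrap, an actin-anchoring protein of myofibril assembly, by 3.07. Other large falls were of genes detected on no in vivo array. Csrp3, the muscle LIM protein, was at least 6.00-fold, Rapsn, which clusters acetylcholine receptors, at least 6.04-fold, and Popdc3, a Popeye family membrane protein, at least 3.57-fold lower in WT1-high cells. In WT1-intermediate cells Igf2, Ankrd1, Csrp3, Rapsn and Popdc3 were again among the 6 largest falls (fitted differences of -4.73, -2.86, -2.85, -2.74 and -2.10 on the log2 scale). The sixth was Myom2, an M line protein, which was at least 3.26-fold lower.

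Several genes with roles in muscle were instead highest in the cells from liver. Unc45b, a chaperone of myosin, rose by 4.62 and 4.44 in the respective in vivo populations, reading 9.55 to 10.36 in vivo and 5.15 to 5.55 in culture. Cdon, a cell surface co-receptor that promotes myogenic differentiation, rose by 3.40 and 3.24. Pdlim3, a Z disc adaptor, rose by 3.18 and 2.78. Mybpc2, the fast myosin-binding protein C, rose at least 5.12-fold in WT1-high cells and was detected on no WT1-negative array. Ncam1, an adhesion molecule, rose by 2.44 in WT1-intermediate cells.

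**Figure D5:**
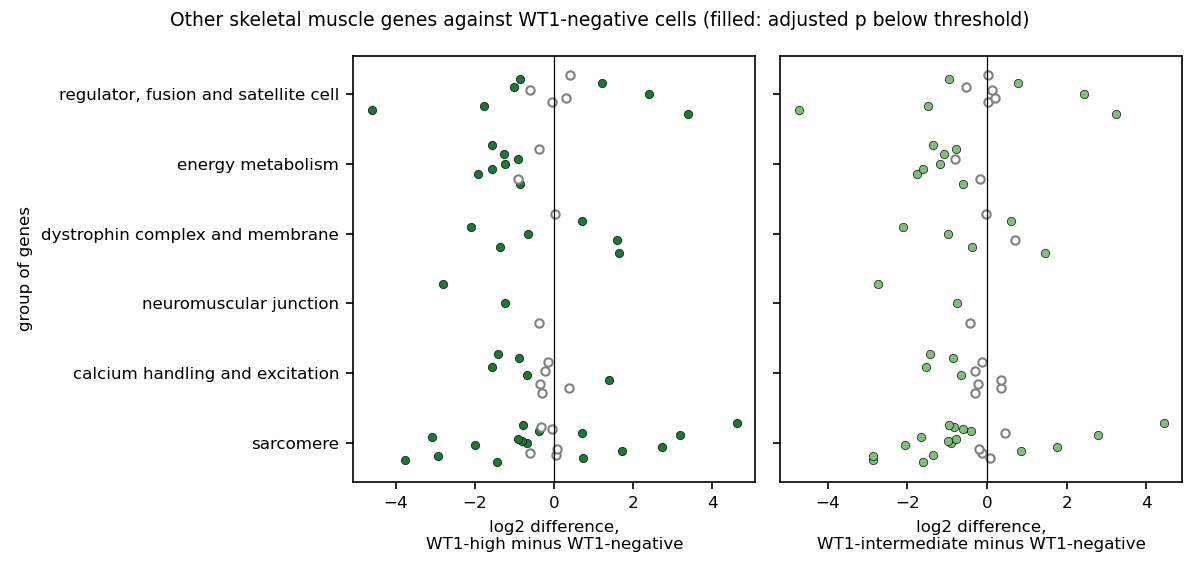
Log2 difference from WT1-negative cells (horizontal axes) of the 61 other skeletal muscle genes that passed the filter, by group of genes (vertical axis), in WT1-high (left) and WT1-intermediate (right) cells, 1 point per gene, filled where limma's adjusted p was under 0.05. Points spread to both sides, from -4.61 for Igf2 to 4.62 for Unc45b in WT1-high cells.

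Between WT1-high and WT1-intermediate cells, 5 of the 61 were called, beside 3.83% of all genes. Nrap was lower in WT1-high cells by -1.41 ± 0.23 (adjusted p = 0.00824) and Dysf, a membrane repair protein, by -0.97 ± 0.14 (adjusted p = 0.00404), and both remained called when any single array was left out. Nrap read 4.93, 5.34 and 4.91 in WT1-high cells and 6.92, 6.28 and 6.20 in WT1-intermediate cells. Des, the intermediate filament desmin that is also a stellate cell marker, was higher by 1.40 ± 0.34 (adjusted p = 0.0453), Cacna2d1, an auxiliary calcium channel subunit, by 1.02 ± 0.15 (adjusted p = 0.00534) and Mybpc2 by 0.99 ± 0.24 (adjusted p = 0.0495). The call of Cacna2d1 was lost when any WT1-high array was left out, where its value came from another probe and was 0.05 to 0.11, and Des and Mybpc2 were each called in 2 of the 9 fits that left out 1 array. With the replicate block 8 of the 61 were called, beside 8.49% of all genes.

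The genes outside the list whose pattern over the 9 arrays was most like the mean of the 30 passing members were G6pdx, Msr2, Npr3, Ednrb, En1, Tsta3, Rab24, Etv1 and a dimmer probe of Tpm2, with a Pearson r between 0.997 and 0.999. The profile itself had 2 levels, 4.65 to 4.81 on the 6 in vivo arrays and 7.25 to 7.60 on the 3 WT1-negative arrays, and the arrays share these 2 sets, so the coefficient carries no p. Ednrb, the endothelin B receptor, read 4.18 to 4.30 in vivo and 8.67, 9.90 and 9.50 in culture. G6pdx, the first enzyme of the pentose phosphate pathway, read 6.36 to 6.54 in vivo and lay above that on each culture array. Of these genes only Tpm2, beta-tropomyosin, belongs to a sarcomere.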

How the data were processed

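Total RNA of 9 sorted samples was measured on Illumina bead arrays. The authors exported summary probe profiles from BeadStudio, and the deposited intensity values are linear, uncorrected and not normalised. Each came with a deposited detection p-value, taken against the array's negative control probes, and a bead number (18 to 65 for the members). The intensities rest on no genome build, and only the RefSeq promoter windows carry one. The array of WT1-intermediate replicate 30 is headed 29 in the in vivo table, and was identified because a joined table under its own label holds the same intensities. Its detection p was recomputed as the share of negative controls brighter than the probe, which on the other 8 arrays differed from the deposited value by at most 0.00107 and changed the detection of 0 probes. The 83 other per-sample columns were not used.

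Intensities were corrected with 936 negative controls (offset 16), quantile normalised and log2 transformed (limma 3.58.1, R 4.3.3), as in the authors' methods. Of 45281 probes, 20573 with a detection p under 0.05 on 3 arrays were kept. A linear model with the 3 groups used all 9 arrays, with 6 degrees of freedom left and 5.19 added by the prior, and limma's two-sided p was adjusted by Benjamini-Hochberg over all kept probes. An adjusted p under 0.05 is a call. Percentages of all genes tested refer to 14659 genes, each by its brightest passing probe. The p-values measure the spread between these samples, and 3 arrays per group limit the precision.

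The study states that both in vivo populations came from 3 animals. Deviations from group means correlated across probes at 0.34 to 0.47 between arrays sharing a number (29 with 30) and at -0.39 to 0.03 otherwise, so the block by replicate is given where it changes a call. Genes named were the 12 members with the largest difference between group means, the myogenic factors, members called between the in vivo groups, the 6 largest falls and 4 largest rises of other muscle genes per comparison with WT1-negative cells, those called between the in vivo groups, and the 10 most correlated genes, of which 1 is not reported here. Emr1 and the other markers named were chosen after their values were seen. The members, lists and rules were chosen with earlier results of these data known. The steps were tested on simulated data.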

Additional observations from a re-analysis of the deposited data

Results flagged for a closer look

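For 6 skeletal muscle genes, the difference from WT1-negative cells was not the same in WT1-high as in WT1-intermediate cells by limma's direct test of 1 population against the other. Among the members this was Chrnb1, with a difference between the populations of 0.59 (adjusted p = 0.0481) and differences from WT1-negative of 2.04 and 1.44. Among other muscle genes, Nrap differed by -1.41 (-3.07 and -1.66 from WT1-negative) and Dysf by -0.97 (-1.36 and -0.38). Des differed by 1.40 (0.05 and -1.34), Cacna2d1 by 1.02 (1.38 and 0.36) and Mybpc2 by 0.99 (2.73 and 1.75). With 1 array left out, Nrap and Dysf stayed called in 9 of 9 fits, Des and Mybpc2 in 2 and Chrnb1 in 0. Cacna2d1 stayed called in 6 and lost the call without any WT1-high array. Its value then came from another probe, and was 0.05 without WT1-high replicate 8. Groups of 3 arrays are too small for the search for single outlying samples.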

How the results depend on the processing

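Where only the setting changed, the median log2 difference of the members from WT1-negative cells (-1.31 in WT1-high, -1.26 in WT1-intermediate) became -0.50 and -0.38 with no background correction, -0.80 and -0.59 with an offset of 50, -1.20 and -1.06 with cyclic loess, -1.38 and -1.17 with the compared groups alone, and -0.62 and -0.34 with all probes of each gene. With the mean of the passing probes it was -1.24 in WT1-high cells. Its direction held in each of these. Requiring detection on all 9 arrays removes genes undetected in vivo, so fewer genes were tested. Members called lower then went from 28 to 6 and from 26 to 5, where 7 members were detected on all 9 arrays. Other muscle genes called lower went from 30 to 15 and from 32 to 18. Markers called went from 67 to 36 and from 61 to 30. With all probes, 54 and 59 probes of other muscle genes were called lower.

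Between the in vivo populations the members' median (0.0024) became -0.19 with cyclic loess. The 1 member called became 0 with the compared groups alone, with array weights and with the mean of probes, 2 with median scaling or detection on all 9 arrays, and 4 with cyclic loess. Of the other muscle genes (5) the count was 2 with no background correction, no filter or the mean of probes, 3 with an offset of 50, detection on all 9 arrays, the compared groups alone or array weights, and 12 with median scaling, which moved the median of all probes from 0.05 to 0.45. The 20 markers called were 10 with no filter. The cause was not tested.

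With the replicate number as a fixed or random block, 5 members were called in each, 8 and 10 other muscle genes, and 36 and 32 markers. Counts from WT1-negative cells stayed within 1.5 times under both blocks.

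Leaving out 1 array gave member medians of -0.02 to 0.01 between the in vivo populations, -1.39 to -1.14 for WT1-high cells against culture, -1.36 to -1.06 for the intermediate ones, and culture spreads of 0.20 (without replicate 11) to 0.49. Members called numbered 0 (without WT1-high 1 or 8, WT1-intermediate 1, or any WT1-negative array) to 2 (without WT1-intermediate 30), other muscle genes 2 (without WT1-high 8 or 29) to 7, and markers 12 (without WT1-high 8) to 19. Against culture, members called lower numbered 15 to 28 and 13 to 27, other muscle genes 18 to 33 and 21 to 33, and markers 60 to 69 and 54 to 64. The lowest member counts came without a WT1-negative array, when genes detected in culture alone can no longer reach the 3-array filter, and the lowest other muscle counts without WT1-negative 14.

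Signal over background limits the low members. Most were undetected in vivo, so only the folds given as at least are bounds, and the levels of Ttn, Myod1 and Myh1 in culture lay close to background.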
